A study of Rattus norvegicus with 10 samples.

Results

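Cd14 and 9 other genes by which cells sense bacterial and viral products through toll-like receptors were examined in the milk fat of rat dams. The 10 genes are Cd14, Ly96, Lbp, Tlr2, Tlr3, Tlr4, Myd88, Irak1, Traf6 and Nfkbia, and each has 1 row among the 16748 genes of the deposited expression table. The set was chosen from measured values of these libraries, because Cd14 was among the genes with the smallest p between the housing groups. The values of the 10 genes in that contrast are therefore a description and carry no test.

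The enriched dams were wild-type Sprague-Dawley rats housed in an enriched environment (EE), a large cage on several levels with ramps, tubes and toys. They were set against wild-type Sprague-Dawley dams in standard laboratory cages (SD), whose housing the study used as its control. Both groups nursed litters standardized in size and cross-fostered between the housing conditions, and both were separated from their litters and given isoflurane and oxytocin before milking on postnatal day 10. Total RNA of the washed milk fat layer was sequenced in 5 EE and 5 SD libraries. The features that make up the enriched cage cannot be told apart in this design.

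Toll-like receptors are transmembrane proteins that bind conserved microbial molecules and gather adaptor proteins on their inner side. CD14 is a lipid-anchored protein without an intracellular tail that takes lipopolysaccharide from the carrier LBP and hands it to TLR4 with its partner MD-2, the product of Ly96. It occurs on monocytes and macrophages, is also made by mammary epithelium, and is present in milk as a soluble protein.

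All values below are normalized counts unless a log2 difference is named. They are reads per gene divided by a size factor of the library, obtained by turning back the authors' log2 transformation, and they can be compared between libraries for 1 gene but not between genes, since transcript lengths were not used. The libraries held an estimated 5.18e+07 to 6.38e+07 reads in EE and 4.33e+07 to 7.02e+07 reads in SD. The standard deviation between libraries was well above what counting reads alone would give for every member in both groups, except for Cd14 in EE. SD 4 stood apart from the rest. Of 10158 genes with a mean of at least 10 counts, 40.0% had their highest or lowest value of the 10 libraries in SD 4, against 9.61% to 25.3% in each other library. The authors' mean count column matched the libraries without SD 4, with a standard deviation of the log2 ratio of 0.0220, against 0.0807 with all 10 libraries. Differences are therefore given with all 10 libraries and without SD 4.

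The stretches around the start sites of Cd14, Tlr2 and Nfkbia are shown because Cd14 and Tlr2 are the members whose groups did not overlap and Nfkbia is a textbook target of NF-kB, the factor at the end of the pathway. They are RefSeq sequences of build GRCr8, while the reads were aligned to rn6. Each run has 250 bases before and 50 bases from the start site, and 7 of the 10 members were in the promoter table. Capitals mark GAGGAA, the core bound by Ets-family factors such as PU.1, in Cd14 (chr18:28611109-28611408, minus strand), and matches to the kB consensus in Tlr2 (chr2:171504508-171504807, minus strand) and Nfkbia (chr6:78597023-78597322, minus strand).
Cd14: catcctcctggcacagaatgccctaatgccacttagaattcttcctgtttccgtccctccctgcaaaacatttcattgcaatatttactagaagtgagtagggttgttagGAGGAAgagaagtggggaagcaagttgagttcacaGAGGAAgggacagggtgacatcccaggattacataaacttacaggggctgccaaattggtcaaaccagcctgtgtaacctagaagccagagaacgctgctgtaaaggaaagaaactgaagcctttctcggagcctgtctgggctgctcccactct
Tlr2: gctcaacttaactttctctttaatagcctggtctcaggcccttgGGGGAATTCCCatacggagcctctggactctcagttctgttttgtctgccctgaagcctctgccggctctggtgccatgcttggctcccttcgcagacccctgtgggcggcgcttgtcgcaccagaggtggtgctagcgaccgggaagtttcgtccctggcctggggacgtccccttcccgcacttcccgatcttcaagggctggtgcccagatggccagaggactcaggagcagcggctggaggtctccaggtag
Nfkbia: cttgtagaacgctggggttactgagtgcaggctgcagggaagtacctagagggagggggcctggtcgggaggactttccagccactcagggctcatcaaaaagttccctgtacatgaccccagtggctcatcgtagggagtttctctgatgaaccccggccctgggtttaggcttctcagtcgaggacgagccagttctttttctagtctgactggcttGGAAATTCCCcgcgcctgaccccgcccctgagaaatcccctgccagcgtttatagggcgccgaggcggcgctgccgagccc
The Cd14 run holds GAGGAA at -140 to -135 and at -105 to -100 and has no match to the kB consensus. In Tlr2 a pair of overlapping kB matches lies at -206 to -197 and -205 to -196, and in Nfkbia 1 match lies at -31 to -22. Both strands were searched for 4 motifs, and of 33469 promoters of 300 bases 27.6% hold GAGGAA, 4.18% the kB consensus, 8.87% TTCNNNGAA, the site of STAT factors, and 33.1% GGGCGG, the site of Sp1. Among the 7 members GAGGAA was found also in Tlr4, at -67 to -62 and -55 to -50, and in Tlr3, at -7 to -2. TTCNNNGAA was found in Myd88, and GGGCGG in Myd88, Nfkbia and Tlr2. A match describes letters in this window and not binding.

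Cd14 had 174.1, 197.8, 178.7, 187.1 and 208.7 counts in EE 1 to EE 5, against 684.1, 238.7, 443.3, 485.3 and 514.6 counts in SD 1 to SD 5. Every EE library lay below every SD library, the EE libraries lay close together, and within SD the highest was SD 1 and the lowest SD 2. The means were 189 ± 14.1 counts in EE and 473 ± 160 counts in SD (standard deviation, n = 5 each), a ratio of 0.400. On the log2 scale the EE minus SD difference was -0.99 with a standard error of 0.20, and -0.97 with a standard error of 0.21 without SD 4. Over 18 alternative analyses it ran between -1.24 and -0.86.

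The spread of Cd14 also differed between the groups. The coefficient of variation was 7.45% in EE and 33.8% in SD. Among the 10158 genes, 7.35% had a smaller standard deviation of log2 values than Cd14 in EE (0.077 against a median of 0.19), and 89.5% had a smaller one in SD (0.46 against a median of 0.25). Counting reads alone would give a standard deviation of 13.0 counts in EE, where 14.1 was measured, and of 25.1 counts in SD, where 160 was measured. Cd14 was chosen by a small p, which a small spread within a group favors, so nothing is read from this rank. Without SD 2, the SD library nearest to EE, the log2 difference was -1.18, and without SD 1 it was -0.86.

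Lbp encodes the carrier that brings lipopolysaccharide to CD14, and Ly96 the protein that holds it in the TLR4 complex. Lbp had 2116, 2936, 1494, 2932 and 1163 counts in EE 1 to EE 5, against 3316, 2750, 1799, 3206 and 2180 counts in SD 1 to SD 5. Ly96 had 1051, 791, 500.4, 1021 and 475 counts in EE 1 to EE 5, against 779, 845, 730, 1156 and 707 counts in SD 1 to SD 5. For both genes the groups overlapped, and EE 3 and EE 5 were the lowest of all 10 libraries. The log2 differences were -0.36 with a standard error of 0.25 for Lbp and -0.17 with a standard error of 0.22 for Ly96. Without SD 4 they were -0.28 and -0.06.

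Tlr2, the receptor for bacterial lipoproteins, had 555.6, 481.9, 280.3, 482.3 and 375.8 counts in EE 1 to EE 5, against 810.7, 668.8, 652.7, 557.0 and 801.2 counts in SD 1 to SD 5. The groups did not overlap, but EE 1 and SD 4 were all but equal. The means were 435 ± 108 counts in EE and 698 ± 107 counts in SD (standard deviation, n = 5 each), a ratio of 0.623. The log2 difference was -0.61 with a standard error of 0.16, and -0.68 with the same standard error without SD 4.

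Tlr4, the signaling receptor for lipopolysaccharide, had 267.9, 209.1, 255.8, 315.6 and 183.8 counts in EE 1 to EE 5, against 404.9, 475.3, 269.9, 234.8 and 446.5 counts in SD 1 to SD 5. SD 1, SD 2 and SD 5 were above every EE library, while SD 3 and SD 4 lay within the EE range. The log2 difference was -0.43 with a standard error of 0.19, and -0.55 with a standard error of 0.17 without SD 4. SD 2, the highest for Tlr4, was the lowest SD library for Cd14.

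Tlr3, the endosomal receptor for double-stranded RNA, had 498.9, 676.9, 379.5, 705.3 and 236.0 counts in EE 1 to EE 5, against 777.1, 594.3, 585.7, 373.3 and 526.3 counts in SD 1 to SD 5. The groups overlapped over most of their range. EE 5 was the lowest library, followed by SD 4 and EE 3. The log2 difference was -0.22 with a standard error of 0.25, and -0.34 with the same standard error without SD 4.

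**Figure D1:**
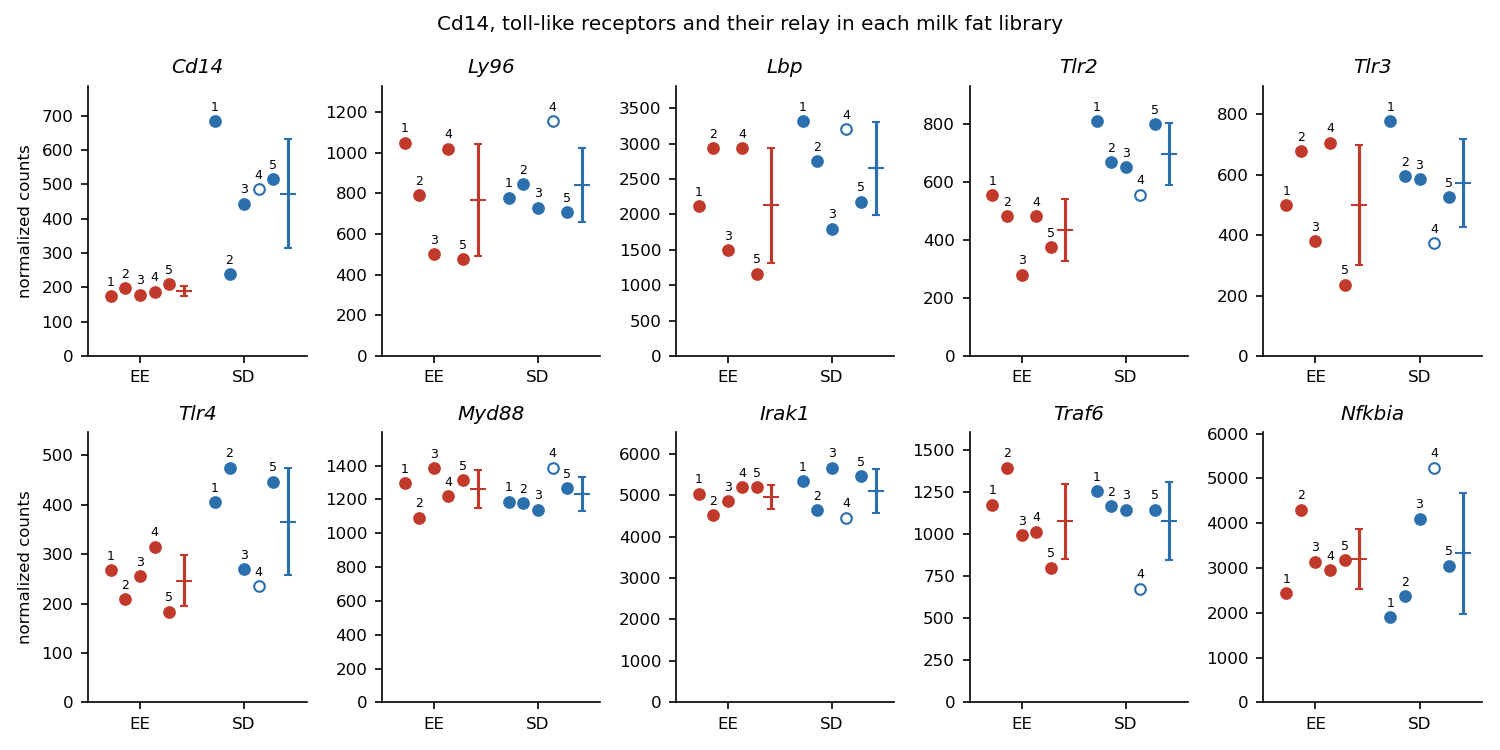
Normalized counts of the 10 genes on axes that start at 0, 1 panel a gene, with EE libraries left and SD libraries right. Each numbered point is a library, bars give the group mean and standard deviation (n = 5 each), and SD 4 is drawn open. The EE points of Cd14 lie between 174.1 and 208.7 counts, below all SD points, which lie between 238.7 and 684.1.

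Behind the receptors, Myd88 encodes the adaptor shared by most of them, Irak1 a kinase that it recruits, and Traf6 a ubiquitin ligase that passes the signal on. Myd88 had 1298, 1092, 1386, 1219 and 1314 counts in EE 1 to EE 5, against 1186, 1177, 1140, 1388 and 1266 counts in SD 1 to SD 5. Irak1 had 5030, 4516, 4851, 5188 and 5187 counts in EE 1 to EE 5, against 5336, 4629, 5659, 4452 and 5447 counts in SD 1 to SD 5. The groups overlapped for both genes, with log2 differences of 0.03 (standard error 0.092) for Myd88 and -0.04 (standard error 0.089) for Irak1. Without SD 4 they were 0.07 and -0.08.

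Traf6 had 1173, 1393, 993, 1013 and 799 counts in EE 1 to EE 5, against 1254, 1166, 1144, 674 and 1144 counts in SD 1 to SD 5. The lowest value was that of SD 4, and the other SD libraries lay close together inside the EE range. The log2 difference was 0.0041 with a standard error of 0.17, and -0.14 with a standard error of 0.13 without SD 4. Its sign turned when that library was left out.

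Nfkbia encodes IkB-alpha, which holds NF-kB in the cytoplasm and is itself induced by NF-kB. It had 2442, 4297, 3145, 2954 and 3175 counts in EE 1 to EE 5, against 1904, 2368, 4104, 5239 and 3051 counts in SD 1 to SD 5. SD libraries held both the lowest and the highest value, and the log2 difference was 0.01 with a standard error of 0.24, and 0.19 with a standard error of 0.21 without SD 4. The standard deviation of Nfkbia among the SD libraries, 0.57 on the log2 scale, exceeded that of 95.1% of the genes.

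Counted together, 7 of the 10 members were lower and 3 higher in EE, with a median log2 difference of -0.19, against -0.0087 over all 12992 genes that varied. Without SD 4 the count was 8 lower and 2 higher, with a median of -0.21, against -0.0016. At an unadjusted p under 0.05 in the limma fit over all genes, 3 members were lower (Cd14, Tlr2 and Tlr4) and 0 higher, both with and without SD 4. Over all genes, 4.05% were lower and 3.35% higher at that p with all libraries, and 5.24% and 5.15% without SD 4. Every EE library lay below every SD library for 2 members, Cd14 and Tlr2, which is so for 0.485% of all genes and for 1.55% without SD 4. The members were chosen by this contrast, so nothing is read from these shares. Tlr4 missed the unadjusted threshold when EE 2, EE 3, EE 5, SD 1, SD 2 or SD 5 was left out, with log2 differences as small as -0.34. Cd14 and Tlr2 stayed past it without any 1 library. Cd14 was chosen by its small p in this contrast, so nothing is read from that either. With all 10 libraries the limma adjusted p was 0.417 for Cd14 and 0.506 for Tlr2.

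**Figure D2:**
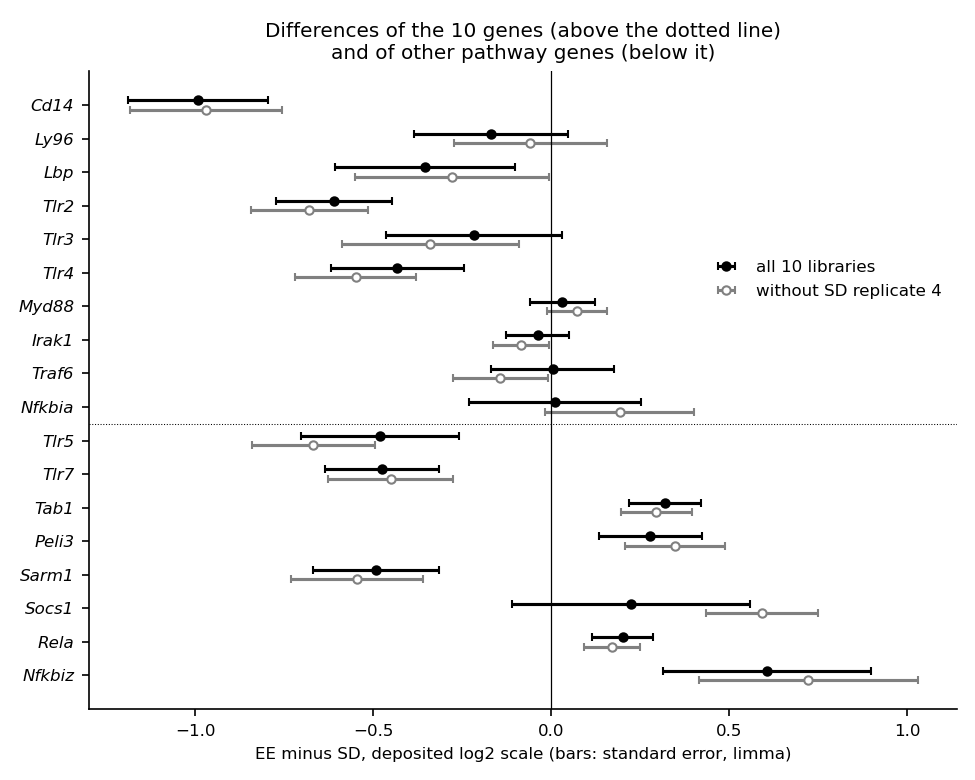
EE minus SD log2 differences with their standard errors for the 10 genes (above the dotted line) and 8 other pathway genes named in the text (below it), from all 10 libraries (filled) and without SD 4 (open). Cd14 lies farthest below 0 at -0.99, followed by Tlr2 at -0.61 and Tlr4 at -0.43, while Myd88, Irak1, Traf6 and Nfkbia lie between -0.04 and 0.03 with all libraries.

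The members did not vary together as 1 group. With the group means taken out, Pearson's r over the 10 libraries was 0.78 between Ly96 and Lbp, 0.71 between Lbp and Tlr3 and 0.79 between Tlr3 and Traf6. Tlr2 was nearest to Tlr3 (0.64) and Traf6 (0.62). Tlr4 ran opposite to Nfkbia (-0.77), and Myd88 ran opposite to Traf6 (-0.78) and Tlr3 (-0.73). Cd14 had an r of 0.40 with Irak1, 0.19 with Tlr2 and -0.27 with Tlr4, the receptor it serves. These values describe 10 libraries that also share differences in depth and composition.

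Ly96, Lbp and Tlr2 were lowest in the libraries in which caseins, the main milk proteins, took the smallest share of the counts. Casein genes held 54.8%, 54.0%, 44.1%, 61.0% and 40.4% of the counts in EE 1 to EE 5, against 61.2%, 60.1%, 57.0%, 60.4% and 57.7% in SD 1 to SD 5. EE 3 and EE 5 had the smallest casein shares and the lowest Ly96, Lbp and Tlr2 of all 10 libraries, and they were the lowest EE libraries for Tlr3. Without these libraries, a choice made after the values were seen, the log2 difference was -0.40 (standard error 0.15) for Tlr2, against -0.61 with all libraries, and it turned positive for Ly96 (0.17), Lbp (0.03) and Tlr3 (0.13). It was -1.01 (standard error 0.24) for Cd14 and -0.35 (standard error 0.22) for Tlr4. Of the 10 members 5 were then lower and 5 higher, with a median of -0.01. Cd14 had no such order within EE, with 178.7 and 208.7 counts in EE 3 and EE 5, against 174.1 to 197.8 in the other EE libraries. The part of library composition in the group differences was not tested.

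The other genes of the pathway were taken from a list of 82 genes, of which 73 were found and 71 varied. Of these, 38 were lower and 33 higher in EE, with a median log2 difference of -0.0089, and 35 were lower and 36 higher without SD 4. At an unadjusted p under 0.05, 2 of the 71 were lower and 2 higher, and 3 and 4 without SD 4. Over all genes 4.05% were lower and 3.35% higher at that p, and 5.24% and 5.15% without SD 4. The counts are near these shares, so nothing is read from them, and the genes named below are a description. None passed an adjusted p of 0.05 (limma, Benjamini-Hochberg), the smallest being 0.561 with all libraries and 0.292 without SD 4. Over all genes 0 passed with all 10 libraries, although 961 had an unadjusted p under 0.05, and 1 passed without SD 4. For the 8 of these genes with an unadjusted p under 0.05 with or without SD 4 (Tlr5, Tlr7, Tab1, Peli3, Sarm1, Socs1, Rela and Nfkbiz), adjusted p ran from 0.561 to 0.905 with all 10 libraries, from 0.292 to 0.485 without SD 4, and from 0.292 to 0.959 over all alternatives. The 9 listed genes without a row were not analysed here.

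Among 9 other toll-like receptors, 8 were lower and 1 higher in EE, while 52.0% of all genes were lower. Tlr1, Tlr7, Tlr8, Tlr9, Tlr10, Tlr11 and Tlr12 each averaged at most 12.8 counts over all libraries, so most of this tally rests on few reads. Tlr5, the receptor for bacterial flagellin, had 129.6, 164.0, 159.7, 266.7 and 173.0 counts in EE 1 to EE 5, against 364.1, 266.9, 272.8, 132.1 and 400.4 counts in SD 1 to SD 5. SD 4 lay within the EE range and the other SD libraries were above or level with the highest EE library, with log2 differences of -0.48 (standard error 0.22) with all libraries and -0.67 (standard error 0.17) without SD 4. Tlr7, a receptor for single-stranded RNA, had 1.1, 4.4, 17.4, 1.1 and 4.1 counts in EE 1 to EE 5, against 32.7, 4.8, 19.3, 22.8 and 20.6 counts in SD 1 to SD 5, so its log2 difference of -0.47 (standard error 0.16) rests on few reads. Tlr6 averaged 141 ± 41.4 counts in EE and 158 ± 44.2 counts in SD (standard deviation, n = 5 each), and reads of Tlr6 and Tlr1 may be shared because their sequences are similar.

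The 7 accessory and trafficking genes that varied were all lower in EE with all libraries, with a median log2 difference of -0.30, while 52.0% of all genes were lower. Without SD 4, 6 of 7 were lower, with a median of -0.24, while 6518 of 12955 genes were lower. Of the 7, Cd180 and Ly86 averaged only 12.8 and 7.36 counts over all libraries. None of the 7 had an unadjusted p under 0.05 with all libraries or without SD 4. Cd36, Hsp90b1, Unc93b1, Cnpy3 and Cnpy4 were lowest of all libraries in EE 3 and EE 5, and without these libraries 4 of the 7 genes were lower and 3 higher, with a median of -0.0078. Cd36, a lipid scavenger receptor abundant in milk fat globule membrane, averaged 83542 counts in EE and 109192 counts in SD, a log2 difference of -0.46 with a standard error of 0.23. Hsp90b1, the endoplasmic reticulum chaperone that folds toll-like receptors, averaged 8112 counts in EE and 10032 counts in SD. Bpi and Tril had 0 counts in all libraries.

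Of 16 further adaptors, kinases and ubiquitin ligases, 6 were lower and 10 higher in EE. Tab1, which activates the kinase TAK1 behind Traf6, had 638.5, 704.3, 775.9, 632.5 and 679.8 counts in EE 1 to EE 5, against 543.8, 483.3, 615.1, 490.5 and 535.2 counts in SD 1 to SD 5. Its log2 difference was 0.32 with a standard error of 0.10 (limma adjusted p = 0.561). Peli3, a ubiquitin ligase of the Pellino family, averaged 122 counts in EE and 89.9 counts in SD, and had an unadjusted p of 0.0775 with all libraries and 0.0318 without SD 4 in the limma fit.

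Negative regulators were split into 4 lower and 4 higher in EE, and into 6 lower and 2 higher without SD 4. Sarm1, an adaptor that dampens signaling through TRIF in human cells, had 55.9, 72.7, 81.3, 41.3 and 136.9 counts in EE 1 to EE 5, against 145.9, 113.2, 146.0, 102.8 and 148.1 counts in SD 1 to SD 5. All but EE 5 lay below the lowest SD library, and the log2 difference was -0.49 with a standard error of 0.18 (limma adjusted p = 0.614). Socs1, a feedback inhibitor of cytokine signaling, had 178.0, 83.4, 111.3, 98.0 and 141.8 counts in EE 1 to EE 5, against 59.7, 55.7, 59.2, 386.8 and 56.4 counts in SD 1 to SD 5. The EE libraries were above 4 SD libraries and below SD 4, so the log2 difference was 0.22 with all libraries and 0.59 without SD 4.

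Of the NF-kB and IRF factors and their kinases, 4 were lower and 9 higher in EE. Rela, the main activating NF-kB subunit, had 1573, 1773, 1593, 1753 and 1737 counts in EE 1 to EE 5, against 1347, 1454, 1614, 1330 and 1543 counts in SD 1 to SD 5. Only SD 3 reached into the EE range, and the log2 difference was 0.20 with a standard error of 0.085 (limma adjusted p = 0.657). Nfkbiz, an inducible nuclear cofactor of NF-kB, averaged 145 ± 82.7 counts in EE and 65.4 ± 31.8 counts in SD (standard deviation, n = 5 each). In EE 1 to EE 5 it had 171.0, 36.3, 221.1, 80.5 and 215.3 counts. In SD 1 to SD 5 it had 36.8, 50.4, 42.1, 109.2 and 88.8 counts. EE libraries held both the lowest and the highest value. The log2 difference was 0.61 with a standard error of 0.29, and 0.72 without SD 4. Without EE 3 and EE 5, a choice made after the values were seen, it was 0.25 with a standard error of 0.29.

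The genes that the pathway induces were split evenly, 9 lower and 9 higher, and none had an unadjusted p under 0.05. Lcn2, an iron-withholding antibacterial protein, averaged 4825 ± 3573 counts in EE and 4371 ± 4241 counts in SD (standard deviation, n = 5 each). Sod2, the mitochondrial superoxide dismutase, averaged 2500 counts in EE and 2611 counts in SD. Zfp36, which destabilizes cytokine mRNAs, averaged 2121 counts in EE and 2396 counts in SD. The median log2 difference of the 18 genes was 0.01, and without SD 4 it was 0.10, with 5 lower and 13 higher. Without EE 3 and EE 5, a choice made after the values were seen, it was -0.10, with 14 lower and 4 higher. Which way these genes leaned therefore depended on the libraries left out.

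The genes whose variation was most like that of Cd14 were sought after the group means had been taken out, so that the difference between groups played no part. The deviations within groups, which also enter the p that chose Cd14, were kept. Among 10157 genes the median Pearson's r over 10 libraries was -0.0052, and 0.0985% of genes had an r of at least 0.9. Of the 8 highest, 7 are described here: Art4 (0.936), Zfp703 (0.936), Homer2 (0.928), Tmem80 (0.913), Zbed3 (0.909), Nudt18 (0.907) and Pdia5 (0.907). In human, ART4 carries a blood group antigen and ZNF703 is a transcriptional repressor of luminal breast cells, while Pdia5 forms disulfide bonds. All 7 were highest in SD 1 and lowest in SD 2 among the SD libraries, as Cd14 was.

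Without SD 1 and SD 2, a choice made after the values were seen, r over the remaining 8 libraries was 0.920 for Zfp703, 0.816 for Zbed3, 0.755 for Art4 and 0.697 for Nudt18, but between 0.089 and 0.27 for Homer2, Tmem80 and Pdia5. Of the 8 genes, 1 was then still among the 8 most like Cd14. Without SD 4 alone, 5 of the 8 were. The likeness of Homer2, Tmem80 and Pdia5 therefore rests on SD 1 and SD 2.

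**Figure D3:**
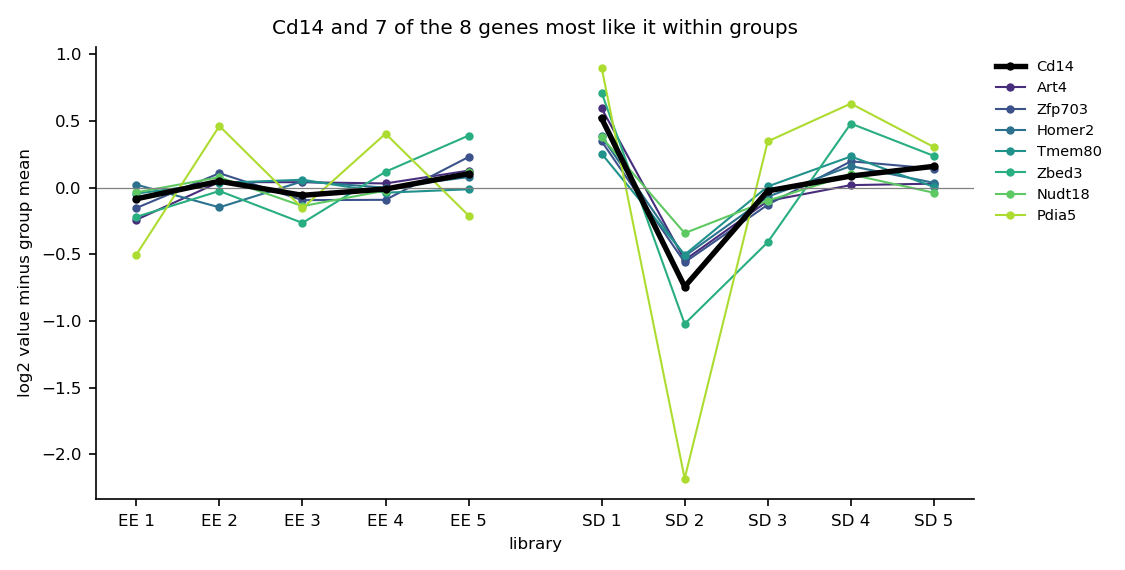
Deviation of log2 values from the group mean in each library, EE libraries left and SD libraries right, for Cd14 and 7 of the 8 genes with the highest r to it. All lines peak in SD 1 and dip in SD 2, and the deviations of Cd14 in EE stay between -0.08 and 0.10.

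Cd14 is used as a monocyte and macrophage marker, so the markers of milk leucocytes were read beside it. In whole milk fat RNA, fewer cells of a type and less RNA per cell cannot be told apart. Of 12 monocyte and macrophage markers 10 had a lower mean in EE, 1 a higher one and Marco was at 0 in all libraries. Their summed counts ran between 151 and 1581 in EE and between 391 and 2329 in SD, and Lyz2 alone gave 1024 of the 1581 counts in EE 1. C1qb and C1qc, which encode complement C1q chains made by macrophages, had ratios of EE to SD means of 0.296 and 0.332, and Adgre1 one of 0.383 at few counts (limma adjusted p = 0.687, 0.653 and 0.683). The order of libraries by this sum differed from that by Cd14. EE 1 had the highest sum in EE (1581) and the lowest Cd14 of all libraries, and SD 1 had the highest Cd14 and the lowest sum in SD (391). With group means taken out, r to Cd14 ran from -0.177 for Csf1r to 0.384 for Mrc1 over the 9 of these markers with a mean of at least 10 counts, and was 0.215 for Lyz2 and 0.328 for C1qa. It was 0.678 for Laptm5, named after the values were seen as the leucocyte marker with the highest r.

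**Figure D4:**
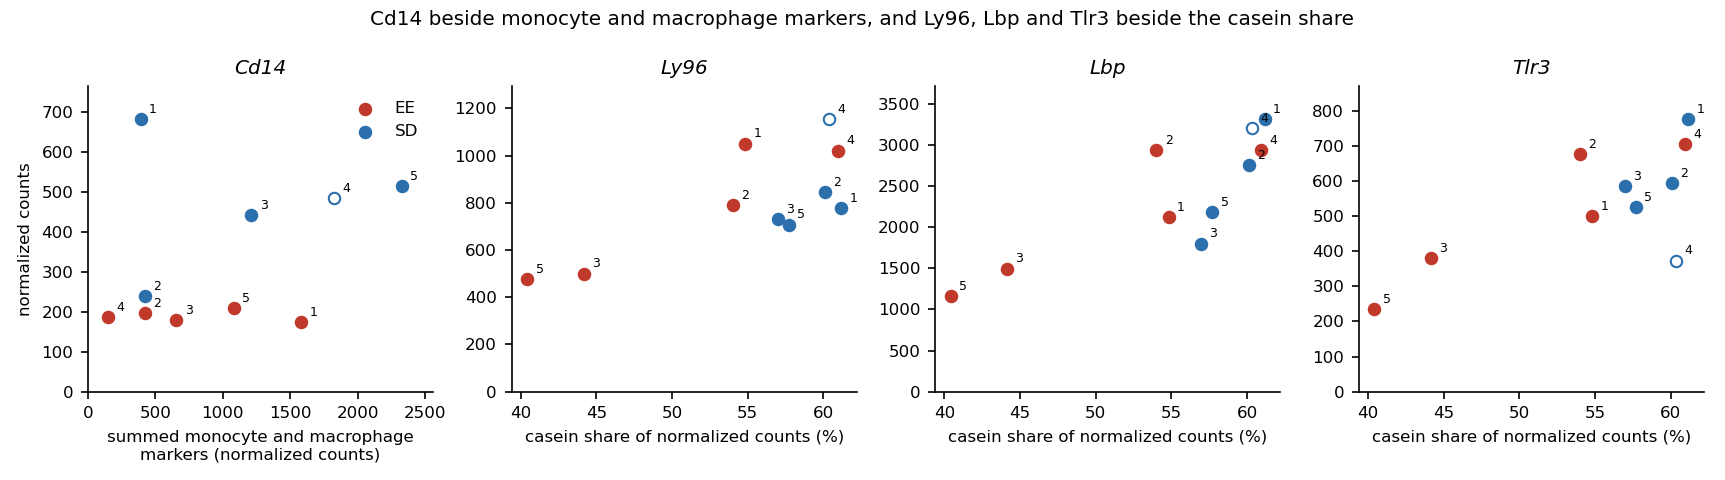
Normalized counts of Cd14 over the summed counts of monocyte and macrophage markers (left panel), and of Ly96, Lbp and Tlr3 over the casein share of each library in percent (other panels), with EE libraries in red, SD libraries in blue and SD 4 open. SD 1 joins the highest Cd14, 684.1 counts, to a marker sum of 391, and EE 1 joins 174.1 counts to a sum of 1581.

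Markers of all leucocytes summed to 619 to 1183 counts in EE and 513 to 1566 in SD. Laptm5 was the largest part of this sum in every library. It gave 1413 of the 1566 counts in SD 1, where Ptprc had 59.7 counts (46.7 to 250 in SD). Neutrophil markers summed to 49.7 to 210 in EE and 45.7 to 170 in SD, with Mpo and Elane at 0 throughout and the other 7 markers higher in mean in EE. T cell markers summed to 55.6 to 193 counts in EE and 68.9 to 184 in SD, and B and plasma cell markers to at most 3.16 in EE and 0 in SD. Markers of the secretory epithelium, which defines the labeled tissue, were abundant in every library and summed to 8.41e+06 to 2.32e+07 in EE and 1.82e+07 to 2.61e+07 in SD. Most of this sum came from Csn2, Csn3, Wap and Lalba, of which Csn2 and Csn3 also enter the casein share. Of the 11 markers 8 had a lower mean in EE and 3 a higher one. Myoepithelial markers summed to 2121 to 2815 counts in EE and 1425 to 2421 in SD, mostly from Acta2. Acta2 had a ratio of EE to SD means of 1.48 (limma adjusted p = 0.506), while the means of the other 5 markers were lower in EE. Among those 5, Myh11, smooth muscle myosin, had a ratio of means of 0.367 (limma adjusted p = 0.561). Krt5 and Krt14 averaged 19.9 and 17.7 counts in EE, against 20.9 and 34.0 in SD. Without SD 4 their SD means were 9.07 and 12.1, below those of EE. Keratinocyte markers summed to 69.2 to 114 counts in EE and 32.6 to 213 in SD, the highest in SD 4. This sum was Krt10 alone, since Krt1, Krt2 and Ivl were at 0 throughout. Fibroblast markers reached at most 4.21 counts in EE and 5.15 in SD, while endothelial markers reached 110 in EE and 69.5 in SD and adipocyte markers 145 in both. The part of these cell types in the Cd14 difference was not tested.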

How the data were processed

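RNA of the milk fat layer was sequenced as single-end reads from a stranded mRNA kit. Per the submitters' notes and methods, reads were aligned to rn6 and analyzed with DESeq2, and the counting tool is not given in the sources used here. The deposited values are log2 values that the authors call rlog; all 10 libraries share the lowest value, 5.46, as a variance-stabilizing transformation gives. That transformation was turned back from its lowest value to normalized counts. The deposited mean count of the authors' comparison, a signal averaged over libraries, was used only to check this over 1354 genes. Fold changes and p-values in the same table were not used.

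Libraries were grouped by their labels. Differences (EE minus SD) came from limma 3.58.1 in R 4.3.3 on the log2 values of 12992 genes, after 3756 genes that did not vary had been set aside, with a variance trend, two-sided tests and Benjamini-Hochberg adjustment. The log2 scale of the transformation understates the change of genes with few reads. Scripts were tested on simulated data. The labels call the 5 libraries of a group biological replicates but do not name the dam or cage of each, so the p-values rest on variation from library to library, which may be partly technical. Alternatives were a filter at a mean of 10 counts, quantile normalization, median centring, log2 of count plus 1 or 10, no trend, array weights, a replicate block, and each library left out.

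The members and gene lists were chosen with earlier results of these data known. Named genes are the 10 members, pathway genes at an unadjusted p under 0.05 (with or without SD 4) and otherwise up to 3 of each list with the highest counts, the 8 genes most like Cd14 (1 is not reported here), and abundant cell type markers. Likeness is Pearson's r of log2 values after the group means were taken out. Promoter sequences are from RefSeq (GRCr8).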

Additional observations from a re-analysis of the deposited data

Results flagged for a closer look

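In 54 groups of 5 libraries examined, 3 held a library far from the other 4. Chance gives about 1 group in 20, so 3 of 54 is near what chance alone gives. Traf6 in SD 4 had 674 counts and the nearest SD library 1143. Socs1 in SD 4 had 387 counts and the nearest SD library 59.7. Tlr7 in EE 3 had 17.4 counts and the nearest EE library 4.40.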

How the results depend on the processing

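Cd14 was lower in EE under all 18 alternatives, and with 1 library left out its log2 difference ran from -1.18 to -0.86. The small differences of Myd88, Irak1, Traf6 and Nfkbia kept their sign in 17, 16, 14 and 15 of 18 alternatives. With 1 library left out, 6 to 9 members were lower, 2 to 3 of them at an unadjusted p under 0.05 and 0 higher at that p. Over all genes the number lower at that p ran from 333 to 679 and the number higher from 292 to 667, with 0 to 1 past an adjusted p of 0.05 (1 without SD 2 and 1 without SD 4). Other pathway genes at that p ran from 2 to 4 lower and from 1 to 4 higher. Scaling moved the split of all genes at an unadjusted p under 0.05: 45.3% of them were higher with the values as deposited, 63.7% after quantile normalization (683 genes higher, 390 lower) and 61.2% after median centring, although the median of all genes moved by under 0.1. Quantile normalization also gave 5 other pathway genes higher and 1 gene past an adjusted p of 0.05. Of the 8 genes most like Cd14, 5 stayed among the 8 without SD 4 and 1 without SD 1 and SD 2 together, the second chosen after the data were seen. Same-numbered EE and SD libraries had correlations of -0.095 to 0.295, and 2 of 10 libraries were most like their own number. These correlations cannot show whether the numbers pair the libraries, and the labels do not say. The replicate block gave 402 genes higher and 698 lower at that p, 1 other pathway gene higher, and Lbp in place of Tlr4 among the 3 members past it. Without EE 3 and EE 5 together, chosen after the data were seen, 4 other pathway genes were lower and 0 higher at that p. Over all 12751 genes then tested, 384 were lower and 324 higher. For the 8 other pathway genes past that p with or without SD 4, 121 results under the 18 alternatives stayed on their side of it, 15 passed it newly and 8 no longer did. The fit without SD 4 is among the 18 and also served to pick these genes, so nothing is read from 15 against 8.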
